A study of Mus musculus with 2 samples.

Results

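Glycolysis and the pentose phosphate pathway were described here through 31 genes, chosen by symbol: glucose carriers, the enzymes of both pathways and the proteins that set the fate of pyruvate. All 31 had unique molecular identifiers (UMIs, tags that each stand for 1 captured transcript) in both libraries, out of 32285 genes listed and 24636 detected. The study profiled single cells from the lung (left lower lobe) of male mice aged 6 to 8 weeks, of the outbred stock ICR. In 1 library (LPS) the mice had received lipopolysaccharide, the bacterial cell wall component used to provoke lung inflammation. In the other (LPS_MCZ, MCZ_ip in the labels) they had also received miconazole, an azole antifungal, by the intraperitoneal route, at 0.2 mg/kg by 1 label and at 1 mg/kg by another. Both groups carried LPS, so no lung without LPS is described, and each library pooled the mice of its group.

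Glycolysis splits glucose into pyruvate in the cytosol, and inflamed macrophages, neutrophils and dividing lymphocytes are known for a high flux through it. Hexokinases trap glucose as glucose-6-phosphate, phosphofructokinase commits it to glycolysis, and the lower steps yield ATP and pyruvate, which lactate dehydrogenase turns into lactate. The pentose phosphate pathway branches off at glucose-6-phosphate: its oxidative arm makes NADPH, which phagocytes spend on the oxidative burst, and its non-oxidative arm makes ribose and returns carbon to glycolysis.

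After filtering, 12074 LPS cells and 8312 LPS_MCZ cells remained, at a median of 5809.5 and 6180 UMIs per cell. Cells were clustered without the 31 genes and 71 further genes of sugar metabolism, and clusters were called X-like by marker genes. Neutrophil-like cells were 60.3% and 51.5% of all cells. Cluster 7, with neutrophil markers but with Treml4, a nonclassical monocyte marker, among its leading genes, stayed unnamed and was 2.24% and 17.3%. Both libraries held 243 barcodes in common, and 173 of these fell in the same class in both, the cause of which was not tested. With 1 library per group no test was possible, and miconazole cannot be told apart from library or mouse pool. Free RNA, which leaks from broken cells into all droplets, was gauged by S100a8 and S100a9, a pair of neutrophil genes: they took 18.2% and 17.97% of UMIs in neutrophil-like, 0.557% and 0.496% in alveolar macrophage-like, 1.75% and 1.68% in T cell-like and 8.04% and 5.81% in erythroid-like cells.

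Values are given for LPS first and LPS_MCZ second. A level is a gene's UMIs per 1000000 UMIs of the cell class (CPM), with no length correction because each UMI marks 1 transcript end. The ratio is the log2 of LPS_MCZ over LPS with a pseudocount of 1 CPM, above 0 where LPS_MCZ was higher. Brackets hold exact 95% intervals that cover counting error only, not variation between mice, and those of ratios are without the pseudocount. A gene counts as higher or lower past 0.5 on that scale, among genes with at least 50 UMIs over both libraries in the class, and the background is the share of all such genes past it.

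Classical monocyte-like cells devoted more of their UMIs to the 31 genes than any other named class, and T cell-like cells less than the other immune classes. The share was 0.638% [0.634, 0.643] and 0.705% [0.7001, 0.7102] in classical monocyte-like cells and 0.667% and 0.778% in cluster 12, a small cycling group nearest to them. Neutrophil-like cells were at 0.404% [0.402, 0.406] and 0.467% [0.465, 0.4699], alveolar macrophage-like cells at 0.3996% [0.395, 0.404] and 0.444% [0.439, 0.449] and T cell-like cells at 0.216% [0.2123, 0.2199] and 0.229% [0.223, 0.235]. In these 4 named classes the intervals of the libraries were separate, with LPS_MCZ higher. The clusters joined in the alveolar macrophage-like class went opposite ways. The share was 0.386% and 0.4435% in cluster 8 (292 and 93 cells) and 0.470% and 0.444% in cluster 9 (60 and 166 cells). The share was 0.236% and 0.262% in vascular endothelial-like cells, 0.265% and 0.3104% in fibroblast-like cells and 0.231% and 0.294% in B cell-like cells. It was lower in LPS_MCZ in platelet-like cells (0.528% [0.496, 0.561] and 0.4604% [0.422, 0.501]) and the erythroid-like class (0.1997% [0.191, 0.208] and 0.183% [0.174, 0.193]), where the intervals overlapped, and in cluster 24, 47 and 36 cells with club and alveolar type 2 markers (0.327% [0.311, 0.344] and 0.237% [0.223, 0.253]). Over 15 classes, Spearman's rho between libraries had a median of 0.864 over the 31 genes and a range of 0.508 to 0.961, as a description of classes that share their library. The same class was highest in both libraries for 22 of the 31 genes.

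**Figure D1:**
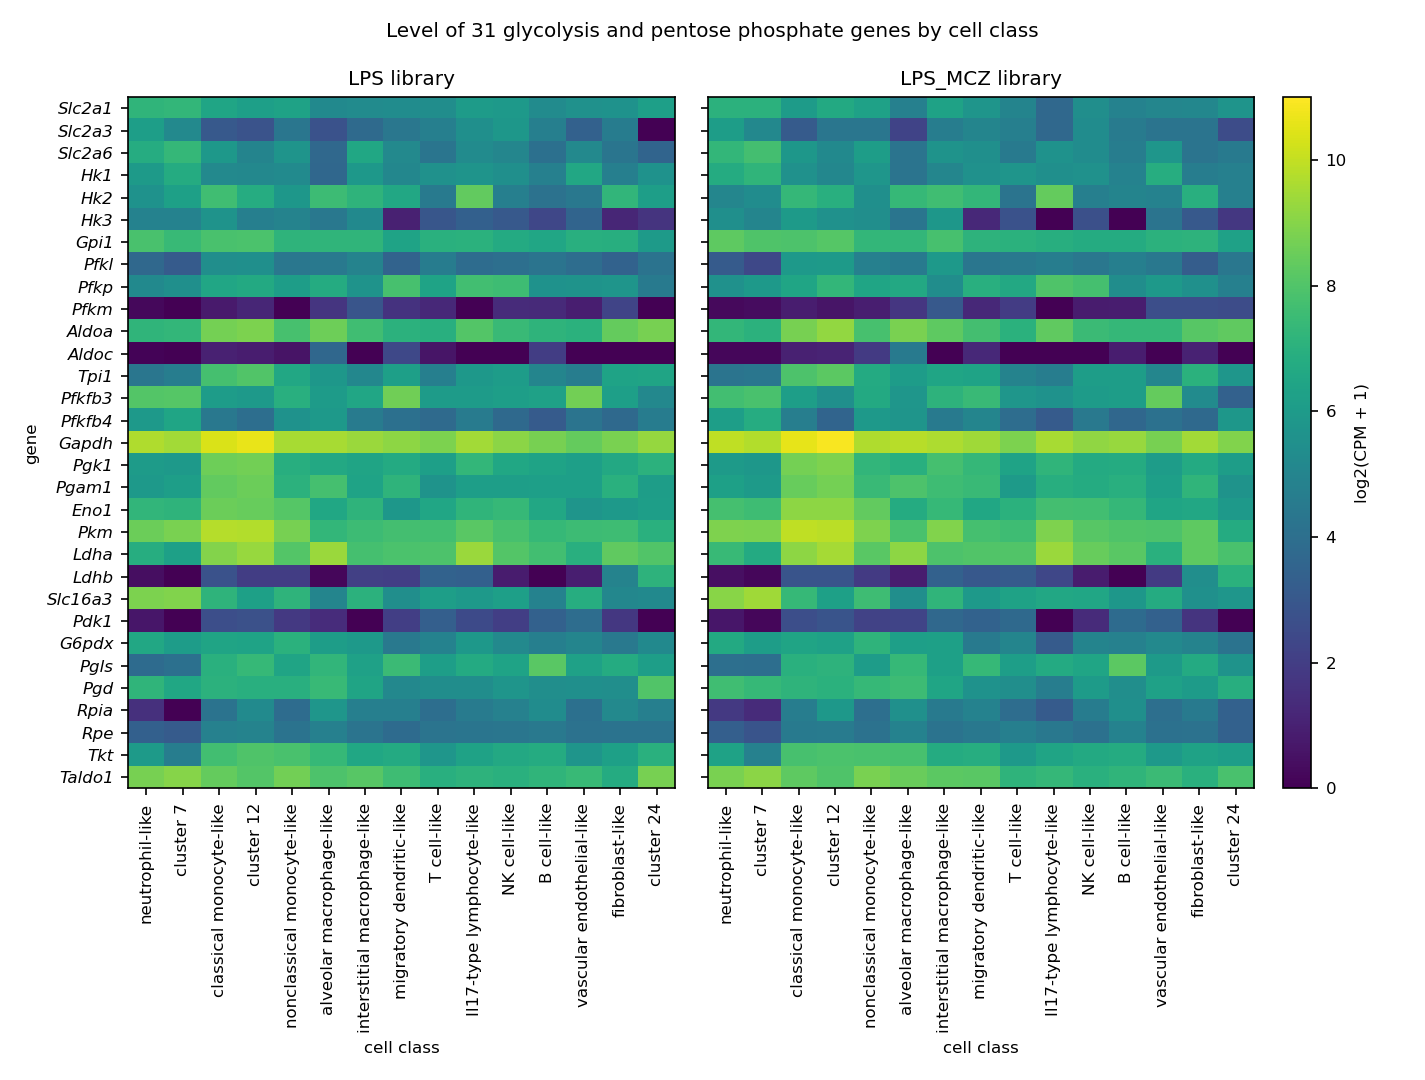
Colour gives the level of each of the 31 genes (rows, log2 of CPM + 1) in 15 cell classes (columns), for the LPS library at left and the LPS_MCZ library at right. Gapdh is the brightest row, classical monocyte-like cells and cluster 12 are bright through the lower steps of glycolysis, and Slc16a3 is brightest in neutrophil-like cells and cluster 7.

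The carriers that bring glucose in differed by cell class. Slc2a1 encodes GLUT1, the basal glucose carrier of many cells, Slc2a3 the high-affinity carrier GLUT3, and Slc2a6 GLUT6, a carrier of inner membranes. Slc2a1 was at 145 and 134 CPM in neutrophil-like cells and 36.1 and 26.98 CPM in alveolar macrophage-like cells. Slc2a3 was highest in neutrophil-like cells, 71.1 and 69.6 CPM, with NK cell-like cells next at 55.6 and 39.3 CPM, and stood at 5.88 and 3.62 CPM in alveolar macrophage-like cells. Slc2a6 was highest in cluster 7, 162 and 207 CPM, against 113 and 153 CPM in neutrophil-like cells. Neutrophils were thus high for all of them and alveolar macrophages low. Of the UMIs of these carriers, Slc2a1 took 66.8% [62.01, 71.4] and 55.6% [49.7, 61.4] in alveolar macrophage-like cells and 44.1% [43.3, 44.9] and 37.5% [36.6, 38.4] in neutrophil-like cells.

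Hexokinase genes divided the classes into those led by Hk1, which encodes the widespread mitochondrion-bound enzyme, and those led by Hk2, which encodes the inducible enzyme. Alveolar macrophage-like cells drew 85.2% [83.4, 86.9] and 82.2% [79.99, 84.3] of hexokinase UMIs from Hk2 and 5.54% and 8.79% from Hk1. Hk2 led as well in classical monocyte-like cells (70.1% and 59.4%), fibroblast-like cells (84.8% and 79.3%) and Il17-type lymphocyte-like cells (84.6% and 88.5%). The last had the highest Hk2 level, 329.5 CPM [278, 388] and 342 CPM [273, 422], in only 52 and 27 cells. Hk1 led in vascular endothelial-like cells (75.5% [67.6, 82.3] and 71.1% [63.9, 77.6]) and T cell-like cells (62.7% and 68.9%), and its level was highest in cluster 7, 107 and 147 CPM. Neutrophil-like cells lay between, with 45.2% [44.02, 46.5] and 58.2% [56.9, 59.5] from Hk1 and 34.5% [33.3, 35.6] and 17.7% [16.8, 18.8] from Hk2. Hk3, the hexokinase gene best known from blood cells, was highest in classical monocyte-like cells, 49.9 and 63.1 CPM.

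**Figure D2:**
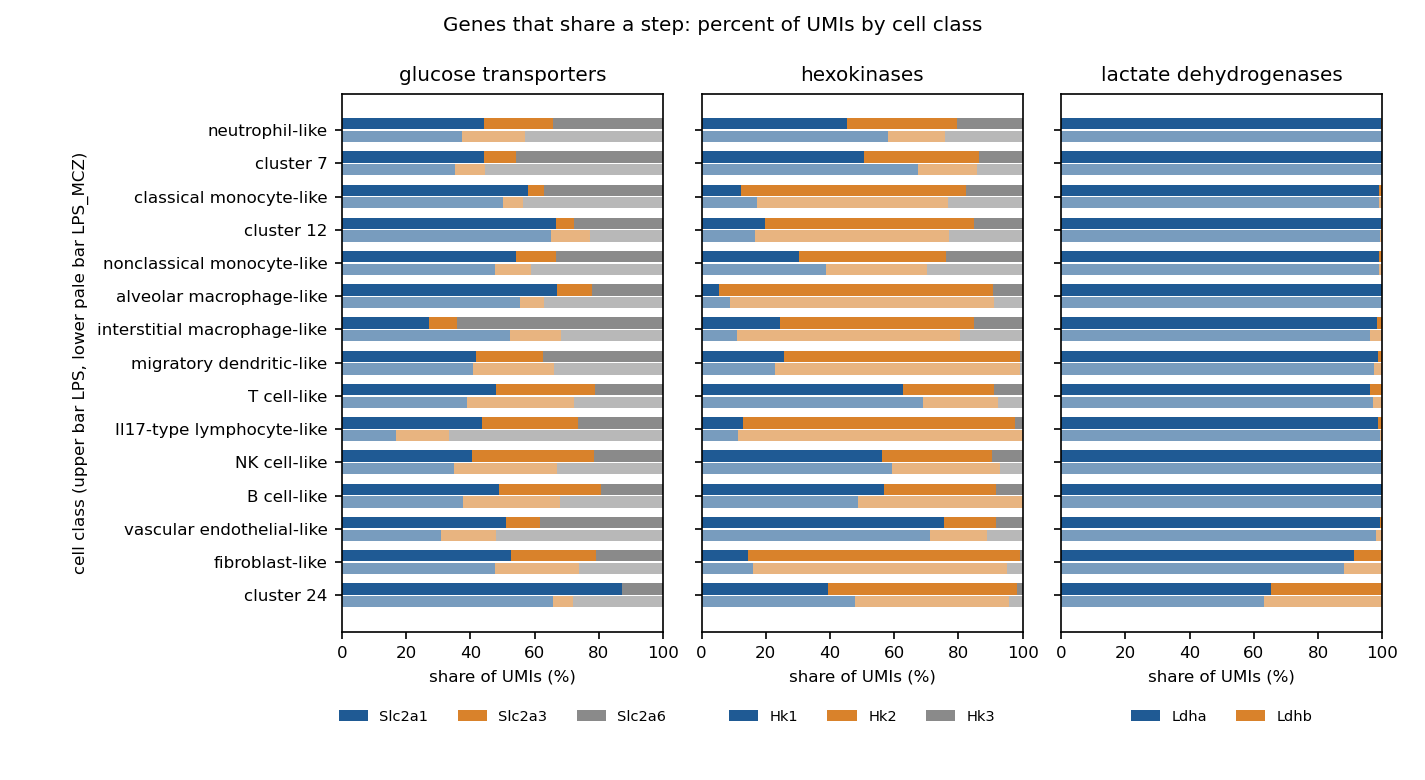
Stacked bars give the percent of UMIs that each gene took within the glucose transporters, hexokinases and lactate dehydrogenases (x axis) in 15 cell classes (y axis), with LPS above and LPS_MCZ below in paler colour. Hk2 fills most of the hexokinase bar in alveolar macrophage-like cells (85.2% and 82.2%) and less in neutrophil-like cells (34.5% and 17.7%), and Ldhb is widest in cluster 24.

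In upper glycolysis, Gpi1, glucose-6-phosphate isomerase, was at 225 and 312 CPM in neutrophil-like cells, the highest class in LPS_MCZ, while cluster 12 was highest in LPS at 234 CPM. Of phosphofructokinase UMIs, Pfkp, the platelet-type gene, took 74.9% and 85.1% in neutrophil-like and 67.99% and 59.7% in classical monocyte-like cells. In interstitial macrophage-like cells of LPS_MCZ it took 38.6% [24.4, 54.5] and Pfkl 54.5% [38.8, 69.6], on 44 UMIs. With free RNA subtracted, Pfkp was at 44.8 and 38.2 CPM in this class and Pfkl at 31.8 and 62.7 CPM, so Pfkl led in LPS_MCZ only. Pfkm, the muscle-type gene, had only 65 and 68 UMIs in the whole libraries. Levels of Pfkp were 205 and 249 CPM in Il17-type lymphocyte-like cells and 189.7 and 215 CPM in NK cell-like cells, against 36.6 and 46.05 CPM in neutrophil-like cells. Aldoa, the main aldolase gene, was highest in cluster 12 (451 and 594 CPM) and at 381 and 438 CPM in alveolar macrophage-like cells. Aldoc, the brain-type aldolase gene, was highest in alveolar macrophage-like cells, 11.6 and 22.05 CPM, and was at 0.0652 and 0.132 CPM in neutrophil-like cells on 3 and 4 UMIs. Tpi1, triose phosphate isomerase, was lowest in neutrophil-like cells, 18.8 and 17.8 CPM, and at 218 and 246 CPM in classical monocyte-like cells.

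Pfkfb3 and Pfkfb4 encode the enzymes that make and break fructose-2,6-bisphosphate, the activator of phosphofructokinase. Pfkfb3 was highest in vascular endothelial-like cells, 407 CPM [371, 446] and 334 CPM [301, 369.7]. Migratory dendritic-like cells followed in LPS, with 387 CPM [349, 429] and 174 CPM [144, 208], intervals far apart in 73 and 45 cells. Neutrophil-like cells had 265 and 206 CPM and classical monocyte-like cells 65.99 and 70.2 CPM. Pfkfb4 was highest in cluster 7, at 88.2 and 111 CPM, and took 47.5% and 49.5% of the UMIs of this pair in alveolar macrophage-like cells, against 4.14% and 4.57% in vascular endothelial-like cells.

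The lower steps, from glyceraldehyde-3-phosphate dehydrogenase (Gapdh) through phosphoglycerate kinase (Pgk1), phosphoglycerate mutase (Pgam1) and enolase (Eno1) to pyruvate kinase (Pkm), were highest in classical monocyte-like cells and cluster 12. Gapdh was at 1347 CPM [1327, 1368] and 1550.0 CPM [1526, 1574] in classical monocyte-like cells, against 836 and 976 CPM in neutrophil-like and 754 and 889 CPM in alveolar macrophage-like cells. Pkm was at 867 and 976 CPM in those monocytes, against 374 and 463 CPM in neutrophil-like and 156 and 225 CPM in alveolar macrophage-like cells. Pgk1 was at 375 and 413 CPM there, against 63.7 and 61.9 CPM in neutrophil-like cells. Reads of Gapdh and Eno1 can be shared with near-identical copies, and the copy Eno1b had 854 and 620 UMIs, so these levels are less certain than the others.

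For the fate of pyruvate, Ldha (the lactate-forming subunit) and Slc16a3 (MCT4, the lactate exporter) were high in different cells. Ldha was at 654 CPM [636, 672] and 567 CPM [548, 586] in alveolar macrophage-like cells and 113 CPM [110.1, 116] and 167 CPM [163, 172] in neutrophil-like cells. Slc16a3 ran the other way, at 30.9 CPM [27.01, 35.1] and 42.5 CPM [37.4, 47.96] in alveolar macrophage-like cells and 449 CPM [443, 455] and 519.95 CPM [512, 528] in neutrophil-like cells. With free RNA subtracted, Slc16a3 in the macrophages was at 16.4 and 25.5 CPM. Ldhb, the subunit that favours pyruvate formation, took 34.8% [27.9, 42.1] and 36.7% [28.9, 45.1] of lactate dehydrogenase UMIs in cluster 24, 8.66% and 11.98% in fibroblast-like cells and 0.287% and 0.216% in neutrophil-like cells. Pdk1, a kinase that keeps pyruvate out of mitochondria, had 232 and 196 UMIs in all.

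The steps of the pentose phosphate pathway were uneven within neutrophil-like cells. G6pdx, glucose-6-phosphate dehydrogenase, was at 94.8 and 102 CPM and Pgd, 6-phosphogluconate dehydrogenase, at 146 and 194 CPM, whereas Pgls, the lactonase gene between them, was at 13.2 CPM [12.2, 14.3] and 15.4 CPM [14.04, 16.9]. Pgls was at 149.6 and 166 CPM in alveolar macrophage-like cells and highest in B cell-like cells, 289 CPM [266, 314] and 297 CPM [267, 330.1]. G6pdx and Pgd are the steps that form NADPH. In the non-oxidative arm, Taldo1 (transaldolase) was at 433 and 437 CPM in neutrophil-like cells and highest in cluster 7, 517 and 547 CPM. Tkt (transketolase) was at 62.1 and 80.9 CPM in neutrophil-like and 206 and 220.4 CPM in classical monocyte-like cells. Rpia, the isomerase that forms ribose-5-phosphate, was at 1.87 and 2.502 CPM in neutrophil-like and 54.5 and 45.4 CPM in alveolar macrophage-like cells. Rpe, the epimerase, stayed between 6.33 and 28.9 CPM over the 15 classes.

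Between libraries, neutrophil-like cells of LPS_MCZ had more Hk1, Hk3, Ldha and Eno1 and less Hk2 and Pfkl. Of the 31 genes, 4 of 27 were higher (background 12.0%) and 2 lower (background 4.55%). The median over those tested was 0.22, against 0.12 over all genes of the class, and values relative to that shift are given as well. Hk1 was at 63.05 CPM [60.8, 65.4] and 106 CPM [103, 110.1], a ratio of 0.75 [0.68, 0.83], and 0.63 relative to the shift. Hk2 was at 48.02 CPM [46.04, 50.1] and 32.5 CPM [30.5, 34.5], a ratio of −0.55 [−0.68, −0.46], and −0.67 relative to the shift. The main hexokinase genes thus lay on opposite sides of 0. Hk3 was at 28.3 and 44.04 CPM, a ratio of 0.62 [0.53, 0.75] and 0.51 relative to the shift. Ldha, at 113 and 167 CPM, had a ratio of 0.56 [0.51, 0.62], and Eno1, at 149 and 214 CPM, one of 0.52 [0.47, 0.57]. Relative to the shift these became 0.45 and 0.40, inside the limit of 0.5. Pfkl, the liver-type phosphofructokinase gene, was at 12.1 and 7.83 CPM, a ratio of −0.57 [−0.85, −0.40]. Inside the limit lay Gpi1 (0.47), Slc2a6 (0.44), Pgd (0.40), Tkt (0.37), Pfkfb3 (−0.37) and Taldo1 (0.01). With each cluster weighing the same, Hk3 was at 0.46, Ldha at 0.497, Eno1 at 0.499, Hk2 at −0.48 and Pfkl at −0.41, all inside the limit.

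The clusters with neutrophil markers were unevenly filled. Clusters 0, 1, 2 and 4 held 1089 to 1546 LPS cells and 82 to 517 LPS_MCZ cells, cluster 3 held 943 and 936, clusters 5 and 6 held 747 and 370 against 998 and 1467, and cluster 7, outside the class, held 270 and 1442. The Hk1 ratio was above 0 within each of the 8, at 0.16 to 1.35, and past 0.5 in 6. The ratio was highest in cluster 5, led by Il23a, Csf1 and Ptgs2, with 58.2 and 149.7 CPM, and lowest in cluster 3, led by the granule genes Camp, Ltf and Ngp, with 74.1 and 83.03 CPM. Hk2 was below 0 in 7 of 8, the exception being cluster 1 at 0.04 [−0.74, 0.74], and in cluster 5 it was at 116 and 64.3 CPM. Eno1 was above 0 in 8 of 8, at 0.31 to 0.71, and Ldha in 7 of 8, at −0.05 to 1.08. No background share was computed for counts of 7 of 8. Pfkl differed in direction, with 10.4 and 20.4 CPM in cluster 0 (0.91 [0.25, 1.66]) and 15.8 and 8.84 CPM in cluster 3 (−0.77 [−1.26, −0.42]). Of 24 genes with enough UMIs in all 8 clusters, 10 were above 0 in each (Slc2a6, Hk1, Hk3, Gpi1, Pfkp, Pfkfb4, Gapdh, Eno1, Pgd and Tkt), where the background was 18.4% of 4583 genes, and 0 were below 0 in each.

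**Figure D3:**
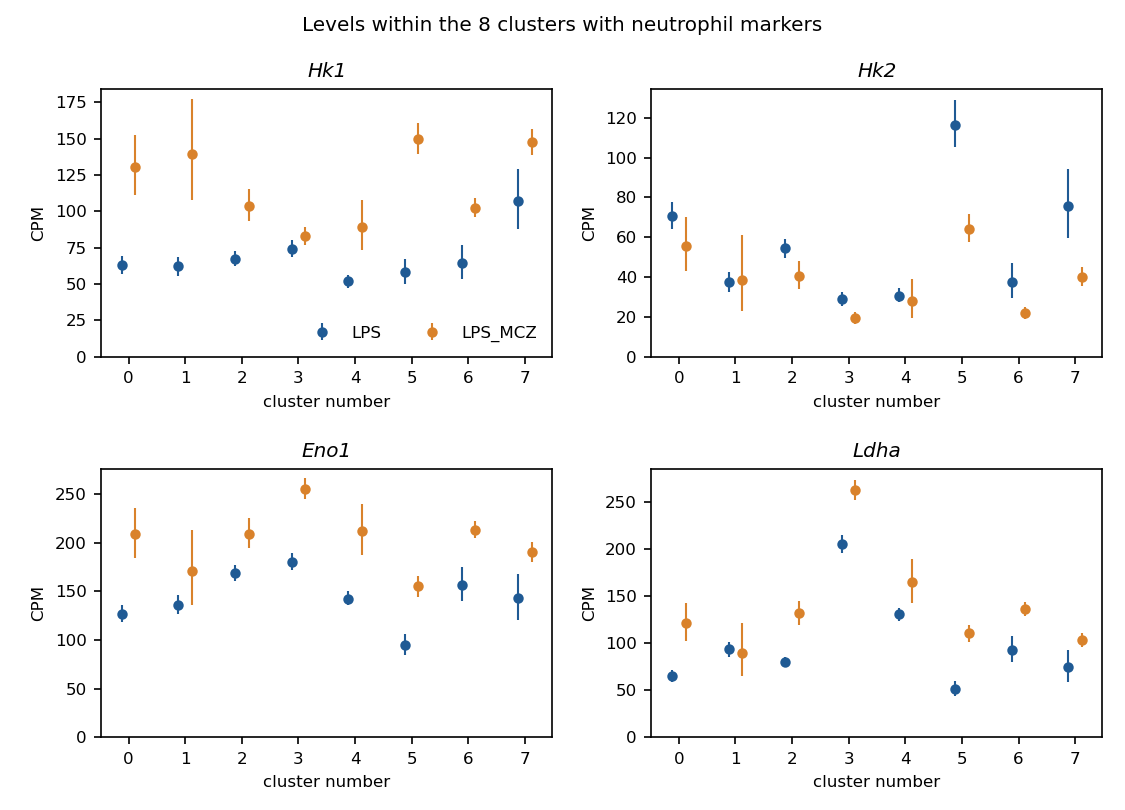
Points give the level (CPM, y axis, from 0) of Hk1, Hk2, Eno1 and Ldha in the 8 clusters with neutrophil markers (x axis) in LPS (blue) and LPS_MCZ (orange), and bars are exact 95% counting intervals. The log2 ratio of Hk1 and of Eno1 is above 0 in 8 of 8 clusters, past 0.5 in 6 for Hk1 and in 3 for Eno1, and that of Hk2 is below 0 in 7 of 8, past −0.5 in 4.

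RefSeq promoter windows of GRCm38.p6, from 250 bases before to 50 after a start site, were found for 30 of the 31 genes, 44 windows in all. The letters ACGTG, the core of sites bound by hypoxia-inducible factor, a known activator of glycolytic genes, occurred on either strand in 18 of 44 windows (40.9%), against 19.6% of 32851 windows. The letters GCGTG, the other form of that core, occurred in 26 of 44 (59.1%), against 32.4%. Both motifs hold the letters CG, and the windows compared were not matched for base composition. Its part in these differences was not tested. ACGTG on the 2 strands overlaps with itself in CACGTG, where both matches are counted. A match is a string of letters, not a site shown to be bound. Windows of 4 genes are shown, 5′ to 3′ on the gene's strand: the hexokinase genes on opposite sides of 0 in neutrophil-like cells, Eno1, above 0 in the 12 classes compared, and Slc2a1, below 0 in 11 of them. They are Hk1 (chr10:62379859-62380158, minus strand, the first of 2 start sites listed), Hk2 (chr6:82774405-82774704, minus strand), Eno1 (chr4:150236458-150236757, plus strand, the first of 3) and Slc2a1 (chr4:119108495-119108794, plus strand). Capitals mark both motifs on either strand.
Hk1: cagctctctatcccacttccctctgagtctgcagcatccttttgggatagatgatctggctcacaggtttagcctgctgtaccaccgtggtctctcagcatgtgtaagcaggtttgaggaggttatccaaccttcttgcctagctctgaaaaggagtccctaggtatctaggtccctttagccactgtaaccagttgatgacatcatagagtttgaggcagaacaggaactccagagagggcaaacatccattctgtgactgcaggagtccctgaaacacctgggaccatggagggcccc
Hk2: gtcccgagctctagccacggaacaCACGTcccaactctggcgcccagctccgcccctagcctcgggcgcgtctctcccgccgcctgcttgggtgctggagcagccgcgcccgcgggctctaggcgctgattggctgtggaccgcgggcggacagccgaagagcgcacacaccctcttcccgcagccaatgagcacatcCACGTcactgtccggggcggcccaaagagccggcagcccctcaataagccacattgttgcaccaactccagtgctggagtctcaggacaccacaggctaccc
Eno1: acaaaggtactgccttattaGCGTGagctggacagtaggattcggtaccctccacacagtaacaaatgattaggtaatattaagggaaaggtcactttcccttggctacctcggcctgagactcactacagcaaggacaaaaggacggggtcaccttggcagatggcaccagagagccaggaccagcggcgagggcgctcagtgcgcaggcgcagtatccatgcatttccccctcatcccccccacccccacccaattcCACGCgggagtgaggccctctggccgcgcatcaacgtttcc
Slc2a1: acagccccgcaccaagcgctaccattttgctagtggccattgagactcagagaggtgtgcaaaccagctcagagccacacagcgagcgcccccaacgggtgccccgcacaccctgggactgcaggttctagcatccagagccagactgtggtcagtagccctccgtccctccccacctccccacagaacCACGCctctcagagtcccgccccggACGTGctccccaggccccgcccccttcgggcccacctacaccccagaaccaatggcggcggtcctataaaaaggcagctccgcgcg
The Hk2 window held 2 matches to ACGTG, and the Slc2a1 window 1 to each motif. The Eno1 window held 2 matches to GCGTG, and the Hk1 window shown 0 to either, while the other Hk1 window held both motifs. The genes span chr10:62268855-62379920 (Hk1), chr6:82725025-82774454 (Hk2), chr4:150236708-150248879 (Eno1) and chr4:119108745-119137330 (Slc2a1).

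In cluster 7, 3 of 25 were higher (background 22.6%) and 1 lower (background 10.4%). The lower one was Hk2, at 75.5 and 40.3 CPM (−0.89 [−1.27, −0.52]). Pgd was at 93.1 and 165 CPM (0.82 [0.52, 1.14]) and Gpi1 at 168 and 248 CPM (0.56 [0.34, 0.80]). Slc16a3, at 482 and 683 CPM, was at the limit (0.502 [0.37, 0.64]). Hk1, at 107 and 147 CPM, stayed inside the limit (0.46 [0.18, 0.76]), so this cluster shared the directions of both hexokinase genes with the neutrophil-like class.

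In alveolar macrophage-like cells, the resident phagocytes of the air spaces, 5 of 28 were higher (background 11.3%) and 1 lower (background 6.04%), with a median of 0.15 against 0.02 over all genes. Aldoc was at 11.6 CPM [9.31, 14.3] and 22.05 CPM [18.5, 26.1], a ratio of 0.87 [0.52, 1.33]. Taldo1 was at 244 and 355 CPM (0.54 [0.45, 0.63]) and Pkm at 156 and 225 CPM (0.52 [0.41, 0.64]). Hk1, the minor hexokinase of these cells, was at 11.9 and 17.8 CPM (0.54 [0.16, 1.00]), and Slc2a6 at 12.02 and 17.9 CPM (0.54 [0.16, 1.00]). The lower one, Slc2a3, had an interval across 0, −0.57 [−1.51, 0.07]. Hk2, their main hexokinase, was at 183 CPM [173, 193] and 166 CPM [156, 177]. With cells thinned to 2000 UMIs, Aldoc was at 0.05 and Slc2a6 at −0.10, so neither call held there. All 9 neutrophil markers were detected in these cells and summed to 6148 and 5536 CPM, and their part in the result was not tested.

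The class joined cluster 8, led by Slc7a2 and Lpl (292 and 93 cells), and cluster 9, led by Plet1 and Kcnip4 (60 and 166 cells), and several values of the class were not those of its clusters. Taldo1 was at 211 and 231 CPM in cluster 8 (0.13 [−0.01, 0.27]) and 414 and 441 CPM in cluster 9 (0.09 [−0.06, 0.24]), so the class value of 0.54 came to 0.10 with both clusters weighing the same. Pkm was at 143 and 216 CPM in cluster 8 (0.59 [0.44, 0.75]) and 225 and 232 CPM in cluster 9 (0.04 [−0.15, 0.25]), and came to 0.28 with equal weights. Hk1 was at 0.55 [−0.01, 1.17] in cluster 8 and 0.17 [−0.56, 0.97] in cluster 9, and came to 0.33. Ldha lay on opposite sides of 0, at 667 and 759 CPM in cluster 8 (0.19 [0.11, 0.27]) and 587 and 435 CPM in cluster 9 (−0.43 [−0.56, −0.30]). Gapdh did so too, at 687 and 832 CPM (0.28 [0.20, 0.35]) and 1101 and 928 CPM (−0.25 [−0.34, −0.15]). Aldoc lay above 0 in both, 0.67 [0.15, 1.28] and 0.70 [−0.01, 1.55]. Whether the clusters differ in these ratios was not tested.

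**Figure D4:**
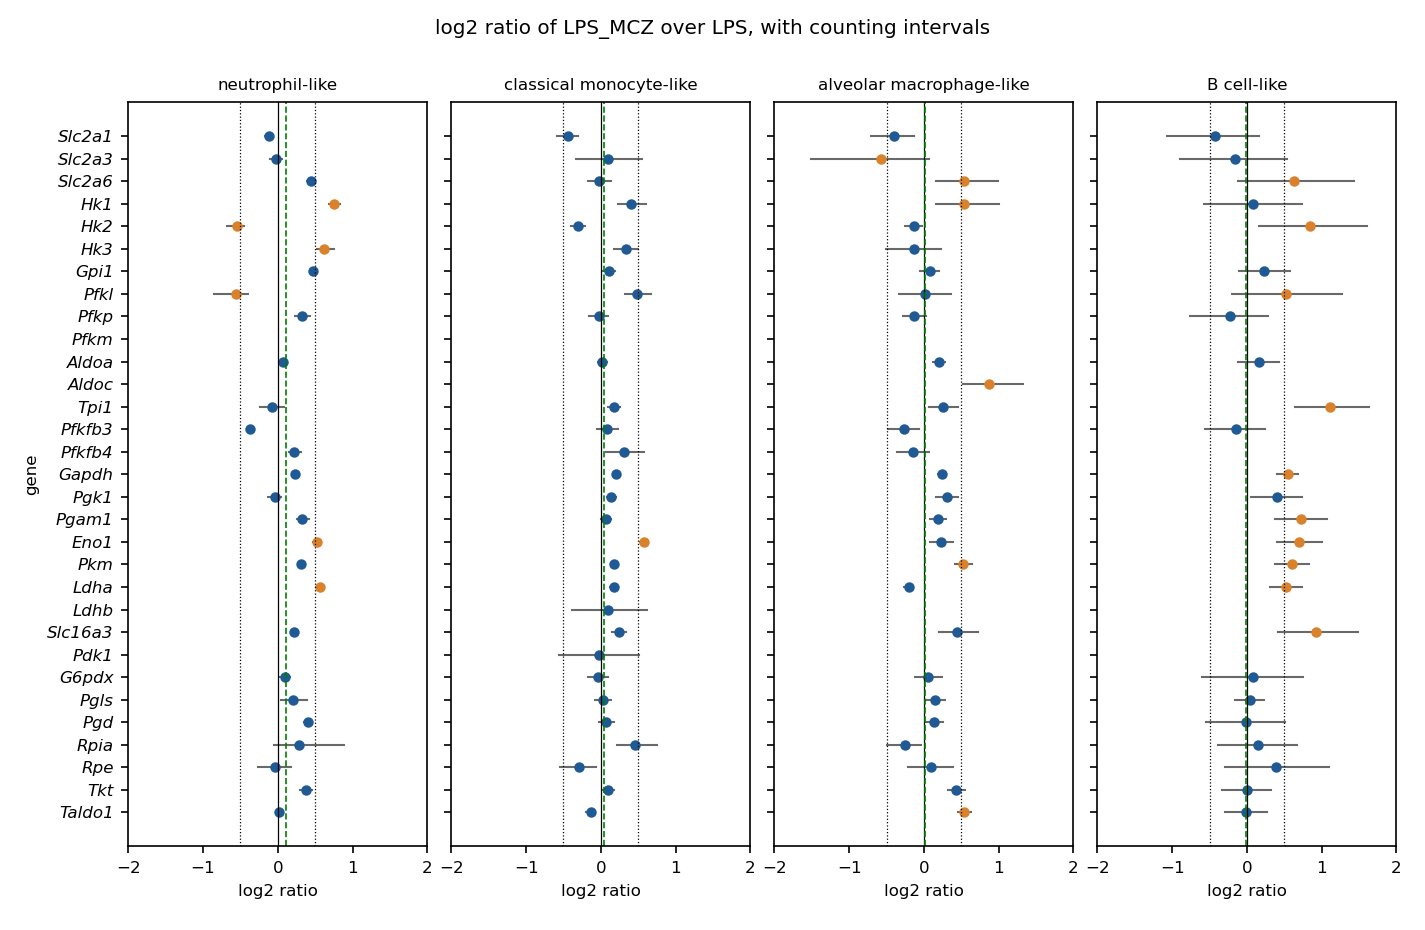
Each point is the log2 ratio of LPS_MCZ over LPS (x axis) of 1 gene (y axis) in neutrophil-like, classical monocyte-like, alveolar macrophage-like and B cell-like cells, with its 95% counting interval as a line. Orange points lie past 0.5 (dotted lines), the green dashed line is the median of all genes in the class, and genes under 50 UMIs have no point. Eno1 is past 0.5 in neutrophil-like, classical monocyte-like and B cell-like cells and at 0.23 in alveolar macrophage-like cells.

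In classical monocyte-like cells, which enter the lung from blood in inflammation, 1 of 29 was higher (background 4.87%) and 0 lower (background 3.69%). The higher one was Eno1, at 371 CPM [360.4, 382] and 552 CPM [538, 566] (0.57 [0.52, 0.63]). Pfkl (0.49) and Rpia (0.46) came close to the limit. Hk2 was at 198 CPM [191, 206] and 160.4 CPM [153, 168] and Hk1 at 34.8 CPM [31.6, 38.2] and 46.5 CPM [42.5, 50.8]. The directions of these hexokinase genes were those of neutrophil-like cells, inside the limit but with separate intervals. In nonclassical monocyte-like cells, which patrol vessels, 1 of 26 was higher (background 8.37%) and 0 lower (background 6.30%). The higher one was Hk1, at 37.4 and 54.3 CPM (0.53 [0.02, 1.05]), where free RNA could make up 23.2% and 29.2% of UMIs by S100a8 and S100a9. With free RNA subtracted it was at 0.35, and it lay inside the limit in 5 of 13 alternatives.

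In B cell-like cells 10 of 25 were higher (background 11.7%) and 0 lower (background 9.07%), with a median of 0.23 against −0.01 over all genes. Lower glycolysis made up 4 of them. Gapdh was at 431 CPM [403, 461] and 629 CPM [585, 676] (0.54 [0.40, 0.69]), Pkm at 166 and 252 CPM (0.60 [0.37, 0.83]), Eno1 at 96.8 and 158 CPM (0.70 [0.40, 1.00]) and Pgam1 at 72.7 and 120.3 CPM (0.72 [0.38, 1.07]). Tpi1 was at 31.6 and 69.5 CPM (1.11 [0.64, 1.63]) and Ldha at 201 and 289 CPM (0.52 [0.31, 0.74]). Slc16a3 was at 28.6 and 55.1 CPM (0.92 [0.41, 1.48]), and at 0.759 and 18.3 CPM with free RNA subtracted. The 10 deepest cells held 12.3% and 30.8% of the class UMIs. With each cell weighing the same, Gapdh was at 0.22, Pkm at 0.25, Pgam1 at 0.28, Ldha at 0.31 and Eno1 at 0.49, and thinned to 2000 UMIs Tpi1 was at 0.31 and Gapdh at 0.10.

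In T cell-like cells 1 of 29 was higher (background 6.82%) and 0 lower (background 4.53%). The higher one was Eno1, at 90.8 and 129 CPM (0.50 [0.30, 0.71]), which came to −0.0191 with cells thinned to 2000 UMIs. It lay inside the limit in 7 of 14 alternatives. In NK cell-like cells 2 of 26 were higher (background 5.61%) and 0 lower (background 6.91%). These were Pgam1, at 70.8 and 107 CPM (0.59 [0.27, 0.92]), and Pfkfb4, at 12.5 and 20.8 CPM (0.69 [−0.06, 1.52]). Pgam1 came to 0.31 with each cell weighing the same and 0.49 without the cells of the highest doublet scores. The 6 erythroid markers, of which 1 and 2 were at 0, summed to 6103 and 743 CPM in NK cell-like cells, and their part was not tested.

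In vascular endothelial-like cells 3 of 21 were higher (background 10.7%) and 1 lower (background 9.04%). Pgd was at 43.1 and 78.2 CPM (0.84 [0.34, 1.39]), Eno1 at 52.8 and 87.98 CPM (0.73 [0.26, 1.22]) and Slc2a6 at 35.2 and 54.2 CPM (0.61 [0.02, 1.24]). The lower one was Slc2a1, at 46.6 and 31.99 CPM (−0.53 [−1.20, 0.09]). Free RNA could make up 32.9% and 29.7% of the UMIs of this class, Pgd came to 0.17 with each cell weighing the same, and Eno1 to 0.14 without the cells of the highest doublet scores. Slc2a6 came to 0.27 with stricter cell filters and 0.41 with the libraries clustered separately. With free RNA subtracted, Pgd was at 1.81 and 43.5 CPM, Eno1 at 0 and 18.3 CPM and Slc2a6 at 14.4 and 31.1 CPM. The 10 alveolar macrophage markers, of which 2 and 1 were at 0, summed to 210 and 526 CPM in these cells, and their part was not tested. In fibroblast-like cells 5 of 19 were higher (background 10.1%) and 2 lower (background 14.8%). Gapdh was at 444 CPM [399.6, 493] and 721 CPM [667, 776.7] (0.70 [0.51, 0.89]), Pkm at 188 and 306 CPM (0.70 [0.41, 0.99]), Tpi1 at 81.7 and 131 CPM (0.68 [0.24, 1.14]) and Eno1 at 60.7 and 96.3 CPM (0.66 [0.15, 1.20]). The lower ones were Slc2a1 (−0.51) and Pfkfb3 (−0.92). Neutrophil markers in fibroblast-like cells summed to 9518 and 19203 CPM, and their part was not tested. Pkm there was at −0.02297 with cells thinned, and Eno1 at 0.24 with free RNA subtracted. Gapdh was at 0.41 with each cell weighing the same, and Tpi1 at 0.48 with all variable genes in the clustering. The 10 deepest fibroblast-like cells held 35.3% and 38.01% of the UMIs.

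In interstitial macrophage-like cells 8 of 19 were higher (background 24.8%) and 1 lower (background 13%), with a median of 0.36 against 0.15 over all genes. Pkm was at 184 CPM [152, 222] and 476 CPM [411, 547] (1.36 [1.03, 1.72]), Pgk1 at 84.8 and 217 CPM (1.35 [0.85, 1.88]) and Pgam1 at 81.5 and 193 CPM (1.23 [0.71, 1.78]). Aldoa was at 194 and 309.7 CPM (0.67 [0.30, 1.05]), Pfkfb3 at 89.7 and 139 CPM (0.63 [0.07, 1.19]) and Gpi1 at 147 and 224 CPM (0.61 [0.18, 1.05]). These values rested on few cells: the 10 deepest of 107 and 66 held 44.8% and 61.6% of the UMIs. Aldoa came to −0.26 with cells thinned, Pfkfb3 to −0.13 with each cell weighing the same, and Gpi1 to 0.45 with the class median subtracted. All 9 neutrophil markers were detected in these cells and summed to 24142 and 11662 CPM, and all 7 classical monocyte markers, which summed to 3683 and 2134 CPM. Free RNA could make up 20.05% and 10.2% of the UMIs, and the part of these differences in the ratios was not tested. In erythroid-like cells 2 of 17 were higher (background 10.9%) and 2 lower (background 30.6%), at a median of −0.22 over all genes. The lower ones were Taldo1, 319 and 175 CPM (−0.86 [−1.16, −0.57]), and Pfkfb3, 132 and 72.7 CPM (−0.85 [−1.34, −0.40]). Neutrophil markers summed to 87732 and 63131 CPM in erythroid-like cells, and their part in these ratios was not tested.

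Some genes leaned one way across the 12 classes compared, which share the same pair of libraries and their free RNA and so are not independent. Eno1 was above 0 in 12 of 12, with the interval above 0 in 10, and ranged from 0.22 to 0.73. Gpi1 was above 0 in 12 of 12 as well (0.06 to 0.61, interval above 0 in 4), and so was Gapdh (0.01 to 0.70, interval above 0 in 9). Relative to the median of each class, Eno1 and Gpi1 were above it in 12 of 12, and Gapdh in 11, with T cell-like cells the exception. Of 12 of these genes with enough UMIs in all 12 classes, these 3 were above 0 in each, where the background was 1.91% of 1410 genes. These counts are without free RNA subtraction. With it, Gpi1 was lower in LPS_MCZ in NK cell-like (85.95 and 65.86 CPM), T cell-like (109.6 and 104.4 CPM), nonclassical monocyte-like (125.5 and 115.1 CPM) and fibroblast-like cells (111.5 and 107.5 CPM). Gapdh was lower in NK cell-like (478 and 444 CPM) and T cell-like cells (364 and 335 CPM). In the rest of the 12 classes where it was run both stayed higher, and Eno1 stayed higher wherever it was run. In vascular endothelial-like cells Eno1 was then at 0 and 18.3 CPM, so no LPS level was left there to compare with. Hk1 was above 0 in 10 of the 10 classes in which it had enough UMIs (0.09 to 1.20). With free RNA subtracted, Hk1 was lower in LPS_MCZ in B cell-like (24.5 and 22.2 CPM) and NK cell-like cells (41.5 and 35.0 CPM). It was about level in T cell-like cells (46.2 and 46.0 CPM) and stayed higher in the rest of those classes where the subtraction was run. Slc2a1 was below 0 in 11 of 12, with intervals below 0 in 5, and the exception was interstitial macrophage-like cells at 1.02. Pfkfb3 was below 0 in 10 of 12, with intervals below 0 in 6. No background share was computed for the counts of Hk1, Slc2a1 and Pfkfb3. The same holds for the counts of intervals and those relative to class medians, so how common they are among all genes is not known. In the unnamed clusters 15 and 17, left out of the 12, Eno1 was at 0.23 and 0.03, Gapdh at −0.23 and 0.06, and Slc2a1 at 0.07 and 0.37. Pfkm had enough UMIs for a ratio in 0 classes, and Aldoc in 1.

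**Figure D5:**
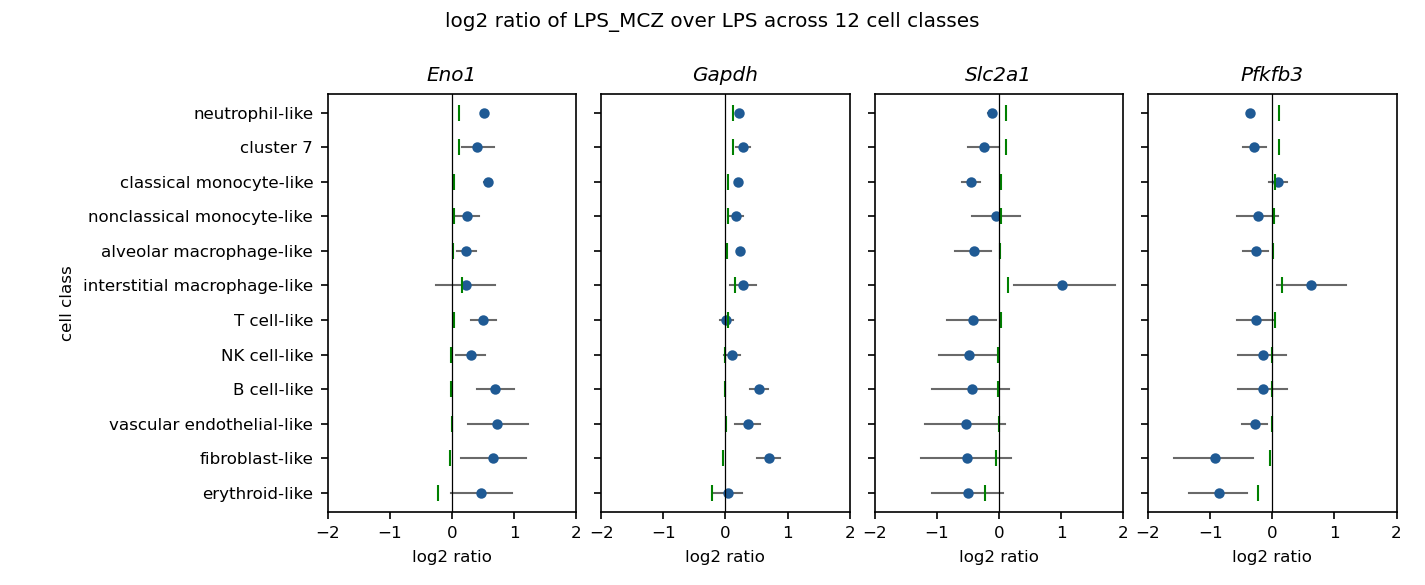
Points give the log2 ratio of LPS_MCZ over LPS (x axis) of Eno1, Gapdh, Slc2a1 and Pfkfb3 in 12 cell classes (y axis), grey lines are 95% counting intervals, and green ticks are the median of all genes in the class. Eno1 lies right of 0 in 12 of 12 classes and Slc2a1 left of 0 in 11 of 12, a count for which no background share was computed.

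Of the 71 other genes of sugar metabolism and its control, those with enough UMIs were counted by the same limit. Their ratios were not recomputed under any of the alternatives, so they hold for the main setting only. In neutrophil-like cells 3 of 38 were higher (background 12.0%) and 1 lower (background 4.55%). The lower one was Egln3, an oxygen-sensing prolyl hydroxylase gene, at 32.7 and 11.9 CPM (−1.39 [−1.63, −1.29]). Mlxip, a glucose-responsive factor gene, was at 17.03 and 27.02 CPM (0.64 [0.52, 0.81]), and Mpc2, a subunit of the mitochondrial pyruvate carrier, at 24.8 and 36.6 CPM (0.55 [0.44, 0.68]). In alveolar macrophage-like cells 8 of 44 were higher (background 11.3%) and 1 lower (background 6.04%). Mpc2 was at 63.5 and 114 CPM (0.83 [0.67, 1.01]), and Pygl, a glycogen phosphorylase gene, was at 66.7 and 104 CPM (0.64 [0.47, 0.82]). In classical monocyte-like cells 2 of 46 were higher (background 4.87%) and 1 lower (background 3.69%). In B cell-like cells 5 of 28 were higher (background 11.7%) and 2 lower (background 9.07%), with Myc, a growth regulator, at 129 and 55.1 CPM (−1.21 [−1.64, −0.83]). Hif1a, the oxygen-regulated subunit of hypoxia-inducible factor, was lower in vascular endothelial-like cells, 537 and 353 CPM (−0.60 [−0.79, −0.42]), in nonclassical monocyte-like cells, 319 and 216 CPM (−0.56 [−0.78, −0.35]), and in erythroid-like cells, 188 and 131 CPM (−0.52 [−0.88, −0.17]). Of the other genes, 3 of 18 were lower in vascular endothelial-like cells (background 9.04%) and 2 of 21 in nonclassical monocyte-like cells (background 6.30%). In erythroid-like cells 3 of 8 were lower (background 30.6%), at a median of −0.22 over all genes. Higher in these classes were 0, 2 and 1 (background 10.7%, 8.37% and 10.9%). The Hif1a values are without free RNA subtraction, and the part of free RNA was not tested.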

How the data were processed

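Single cells were captured with 10x 3′ chemistry. The deposited matrices hold whole UMI counts per gene and barcode, made with Cell Ranger 7.0.0 per the file headers, and bcl2fastq 2.20 and mm10 are named in the submitters' processing notes; intron counting is not given in the sources used here. Depth was 90597705 (LPS) and 68467793 (LPS_MCZ) UMIs over 12577 and 8500 barcodes. Barcodes were kept from 200 genes and 500 UMIs upward, with mitochondrial UMIs no higher than 20%. They were clustered with scanpy 1.11.5 (2000 variable genes, 30 components, resolution 1) and named from at least 3 markers; rules on cycling, tied and shallow clusters were set after the clusters were seen. The doublet caller marked 2 cells per library, against 9.66% and 6.65% expected, so it had not worked. The marked cells were left out, and no other doublets were removed.

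UMIs were summed per class and library. Intervals are exact Poisson (levels), conditional binomial (ratios) and Clopper-Pearson (shares), at 95%, and the ratio computation was tested on simulated data. Ratios were computed for classes with at least 50 cells per library and levels for classes with at least 25. Every one of the 31 genes is named, and in the 12 classes compared, ratios past 0.5 are given in full where the interval did not include 0 and the gene had at least 100 UMIs, at most 12 per class. Other pathway genes could be named by the same rule, at most 6 per class, and some of them are. Other values were chosen after they were seen. The 31 genes and the lists were chosen with earlier results of these data known. A second row with the symbol Aldoa held 2 and 1 UMIs and was left out. Alternatives changed the filters, clustering, weighting, pseudocount, minimum UMIs, free RNA and depth; leaving out shared barcodes, cluster 7 counted with the neutrophils, and each cluster weighing the same were added after seeing the data.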

Additional observations from a re-analysis of the deposited data

Results flagged for a closer look

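Pfkfb3 lay on opposite sides of 0 in 2 classes, with ratios of 0.63 in interstitial macrophage-like cells and −0.85 in erythroid-like cells. Taldo1 did so with 0.54 in alveolar macrophage-like cells and −0.86 in erythroid-like cells. The values above 0 were not stable. Pfkfb3 in interstitial macrophage-like cells came to −0.13 with each cell weighing the same. Taldo1 in alveolar macrophage-like cells came to 0.10 with both of their clusters weighing the same. Neither difference between classes was tested, because each class had 1 library per group.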

How the results depend on the processing

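No paired analysis was possible because each group had 1 library, and no library could be left out. Over 16 alternatives, 37 named ratios were recomputed 519 times: 514 kept their direction and 5 were on the other side of 0. The settings for minimum UMIs (20 and 200) only repeat a gene's main ratio, and a pseudocount of 5 CPM cannot change its direction. The 514 include these. Of the 37 ratios, 6 stayed past 0.5 in every alternative run for them. They were Hk1 in neutrophil-like cells, Pkm, Pgk1 and Pgam1 in interstitial macrophage-like cells, and Taldo1 and Pfkfb3 in erythroid-like cells. Free RNA was not subtracted in neutrophil-like or erythroid-like cells, so that alternative was not run for Hk1, Taldo1 and Pfkfb3 there. Of the 5 on the other side of 0, Pfkfb3 in interstitial macrophage-like cells was at −0.13 with each cell weighing the same. The others came with cells thinned to 2000 UMIs. They were Eno1 in T cell-like cells (−0.0191), Slc2a6 in alveolar macrophage-like cells (−0.10), Pkm in fibroblast-like cells (−0.02297) and Aldoa in interstitial macrophage-like cells (−0.26). The cause was not tested.

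In neutrophil-like cells the median of 0.22 came to 0.11 with the class median subtracted. The 4 genes higher became 2 with the class median subtracted or each cluster weighing the same, and 7 at a clustering resolution of 0.5. The 2 lower became 1 with thinning or a pseudocount of 5 CPM and 0 with each cluster weighing the same. In alveolar macrophage-like cells the 5 higher became 0 with thinning, 3 with a pseudocount of 5 CPM or a minimum of 200 UMIs, and 2 with each cluster weighing the same. The 1 lower became 2 with each cell weighing the same, and 0 with thinning, a pseudocount of 5 CPM, a minimum of 200 UMIs, stricter cell filters, resolution 0.5, all variable genes in the clustering, libraries clustered separately, the highest doublet scores removed, free RNA subtracted or each cluster weighing the same. In classical monocyte-like cells the 1 higher became 0 with thinning and 2 at resolution 0.5 or with free RNA subtracted, and the 0 lower became 1 with thinning.

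The share of UMIs in LPS moved with thinning to 0.398% in neutrophil-like, 0.633% in classical monocyte-like and 0.191% in T cell-like cells, and with free RNA subtracted to 0.659% and 0.174% in the last 2. In LPS_MCZ it was 0.444% in alveolar macrophage-like, 0.467% in neutrophil-like, 0.705% in classical monocyte-like and 0.229% in T cell-like cells. The Hk2 share of hexokinase UMIs in LPS moved to 37.97% and 68.2% with thinning in neutrophil-like and classical monocyte-like cells, and to 14.4% with free RNA subtracted in T cell-like cells. In LPS_MCZ it was 82.2%, 17.7%, 59.4% and 23.5% in alveolar macrophage-like, neutrophil-like, classical monocyte-like and T cell-like cells. Free RNA was not subtracted in neutrophil-like cells or where its share reached 50%, as it did in erythroid-like cells. Separate clustering gave no B cell-like class in LPS_MCZ.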
